A study of Homo sapiens with 6 samples.

Results

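The genes described here encode the ionotropic glutamate receptors and the GABA-A receptors of human neurons. They were taken as every human feature whose symbol begins with GRIA, GRIK, GRID or GRIN and a number, or follows the GABR pattern for the alpha to rho subunits, with antisense and other dashed names left out. That gave 38 of 38606 human features: 4 AMPA, 5 kainate, 2 delta and 7 NMDA receptor genes, 6 alpha, 3 beta and 3 gamma genes of GABA-A receptors, 7 other GABA-A and rho genes, and GRID2IP. GRID2IP matches the pattern but encodes a scaffold protein, not a subunit. The libraries come from teratomas of H1, an established human embryonic stem cell line, grown from cells given with matrigel into the flank of immunodeficient NSG mice. The 3 groups are lncPRESS1 WT, lncPRESS1 KO and lncPRESS1 ΔATG (DATG), with 2 libraries each; lncPRESS1 is a long noncoding RNA of pluripotent cells. All groups share the host strain and the matrigel, and the labels give neither clones, tumour ages nor what exactly ΔATG removes. Nor do they tie the libraries to separate tumours, so the p-values measure only the spread between these libraries, which may be technical.

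AMPA, kainate and NMDA receptors are cation channels opened by glutamate, each assembled from several subunits. The GRIA2 subunit sets whether an AMPA receptor passes calcium, and GRIN1 is the obligatory subunit of NMDA receptors, joined by GRIN2 or GRIN3 subunits. Delta receptors are related in sequence but act mainly as synaptic organisers that bind cerebellins. GABA-A receptors are chloride channels built from alpha, beta and gamma subunits, or with delta, epsilon, theta, pi or rho subunits in special settings. Several of these genes are on in neuronal progenitors and in tissues outside the nervous system.

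The promoters of 4 members are shown because the results turn on these genes. GRIA2 was called when the KO and WT libraries were compared alone, GRIA4 is an AMPA gene with similarly high levels in neurons, and GRIK4 and GABRP were each highest in a class that is not neuronal. The RefSeq promoter table (GRCh38.p14) holds 39 promoters of 26 of the 38 members, and each window below covers bases before a transcript start, cut short at the first exon that GENCODE 29 gives the gene. In GRIA2 (chr4:157220369-157220618, plus strand) the capitals mark an RE1 core, the element read by the silencer REST, which lies here on the reverse strand at chr4:157220392-157220408. In GRIA4 (chr11:105609744-105609993, plus strand), GRIK4 (chr11:120511498-120511699, plus strand) and GABRP (chr5:170783475-170783690, plus strand) the capitals mark CpG dinucleotides.
GRIA2: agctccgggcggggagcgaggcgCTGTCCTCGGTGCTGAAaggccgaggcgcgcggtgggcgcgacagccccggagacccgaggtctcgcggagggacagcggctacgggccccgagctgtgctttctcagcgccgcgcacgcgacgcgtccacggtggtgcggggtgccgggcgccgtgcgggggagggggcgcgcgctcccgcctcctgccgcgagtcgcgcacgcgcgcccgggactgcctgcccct
GRIA4: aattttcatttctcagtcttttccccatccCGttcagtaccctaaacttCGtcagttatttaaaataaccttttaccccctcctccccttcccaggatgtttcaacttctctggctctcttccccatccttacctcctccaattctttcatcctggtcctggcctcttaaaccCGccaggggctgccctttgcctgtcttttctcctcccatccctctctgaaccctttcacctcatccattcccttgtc
GRIK4: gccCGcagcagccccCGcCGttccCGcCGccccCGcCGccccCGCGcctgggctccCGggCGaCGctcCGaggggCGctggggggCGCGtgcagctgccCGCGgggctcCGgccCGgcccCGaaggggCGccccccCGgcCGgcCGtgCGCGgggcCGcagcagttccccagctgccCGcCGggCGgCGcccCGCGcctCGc
GABRP: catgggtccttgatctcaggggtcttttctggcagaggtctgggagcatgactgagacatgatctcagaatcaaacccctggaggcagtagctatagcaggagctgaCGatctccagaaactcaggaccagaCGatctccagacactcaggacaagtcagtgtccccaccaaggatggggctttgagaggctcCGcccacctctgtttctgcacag

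The RE1 core was searched, on both strands of the 250 bases before each start, as its left part TTCAGCACC, any 2 bases and its right part GGACAG. It was found in 5 of 35116 RefSeq promoters (0.0142%), and among the members only in GRIA2. The left part alone, which the core contains, was found in 101 promoters (0.288%), and the shorter right part in 6031 (17.2%), 6 members included. The letters TATAAA were found in 10.7% of all promoters and in GABRA2, GABRR1 and GABRR2. The GRIA2 window has 43 CpG dinucleotides and the 250-base GRIK4 window 44, while those of GRIA4 and GABRP have 3 each, against a median of 11 over all promoters. These are single windows: that of GRIA2 was chosen because it holds the RE1 core, and the others are the first by position. Other starts are listed for GRIA2 (6 and 8 CpG), GRIA4 (7 and 25) and GRIK4 (23). The contrast in CpG between these genes therefore depends on the window chosen. A match of letters is a description of the window and shows no binding. Members not matched in the table include GABRA3, GABRA5, GABRD, GRIA3, GRID1, GRIK1, GRIN1 and GRIN2C.

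The 6 libraries held 5254 to 10932 human nuclei after filtering, 49204 in all, with 19943900 to 33281701 human UMIs (unique molecules counted) per library and a median of 2429.5 to 3838.5 per nucleus. DATG replicate 2 stands apart: 35.5% of its barcodes mixed human and mouse RNA, against 4.75% to 13.2% elsewhere, and were left out. Mitochondrial RNA made up 0.511% and 0.542% of human UMIs in the DATG libraries, against 0.0798% to 0.184% in the others. Between 7 and 34 barcodes of human nuclei were shared by any pair of libraries. Neuron-like nuclei, named from neuronal markers such as STMN2, DCX and ELAVL4, made up 7.50% and 8.69% of human nuclei for WT, 27.7% and 21.1% for KO, and 21.8% and 5.37% for DATG. They numbered 394 and 950 (WT), 2552 and 1560 (KO), and 2364 and 300 (DATG). The targeted gene, LNCPRESS1, gave 5 and 2 UMIs in the WT libraries, 3 and 0 in the KO libraries and 1 and 3 in the DATG libraries, too few to check the labels. The members were kept out of the genes used for clustering, but the clusters come from the same nuclei, so levels by cluster are given as descriptions without a test.

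The neurons fell into 4 named types. Glutamatergic neuron-like nuclei (3044) joined an NEUROD4 and EBF2 cluster, numbered 7, and a cluster led by SCN10A, a sodium channel gene of sensory neurons, numbered 23. Cholinergic or motor neuron-like nuclei (2881) were led by SLC5A7, the choline transporter, but their cluster also met the marker list of glutamatergic neurons. GABAergic neuron-like nuclei with DLX genes numbered 1265 and glycinergic or spinal inhibitory neuron-like nuclei with SLC6A5, PAX2 and PAX8 numbered 930. A library enters a mean below only with at least 20 nuclei of the type, and CPM (summed UMIs of a gene scaled to a common library total) are unscaled there. The names depend on the clustering: at Leiden resolution 2, a cluster of 1571 nuclei led by TBR1, OTP and SIM1 was named glutamatergic and 1605 nuclei cholinergic. GRIA2 in the glutamatergic type then stood at 280.8 CPM instead of 144 CPM. With a higher minimum of UMIs per nucleus, a cluster of 3617 nuclei led by SLC5A7, OTP and TBR1 was named glutamatergic. The cholinergic type may therefore hold many glutamatergic neurons, and their number was not counted. Contrasts below between the cholinergic and glutamatergic types compare clusters and cannot be read as contrasts between transmitters.

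**Figure D1:**
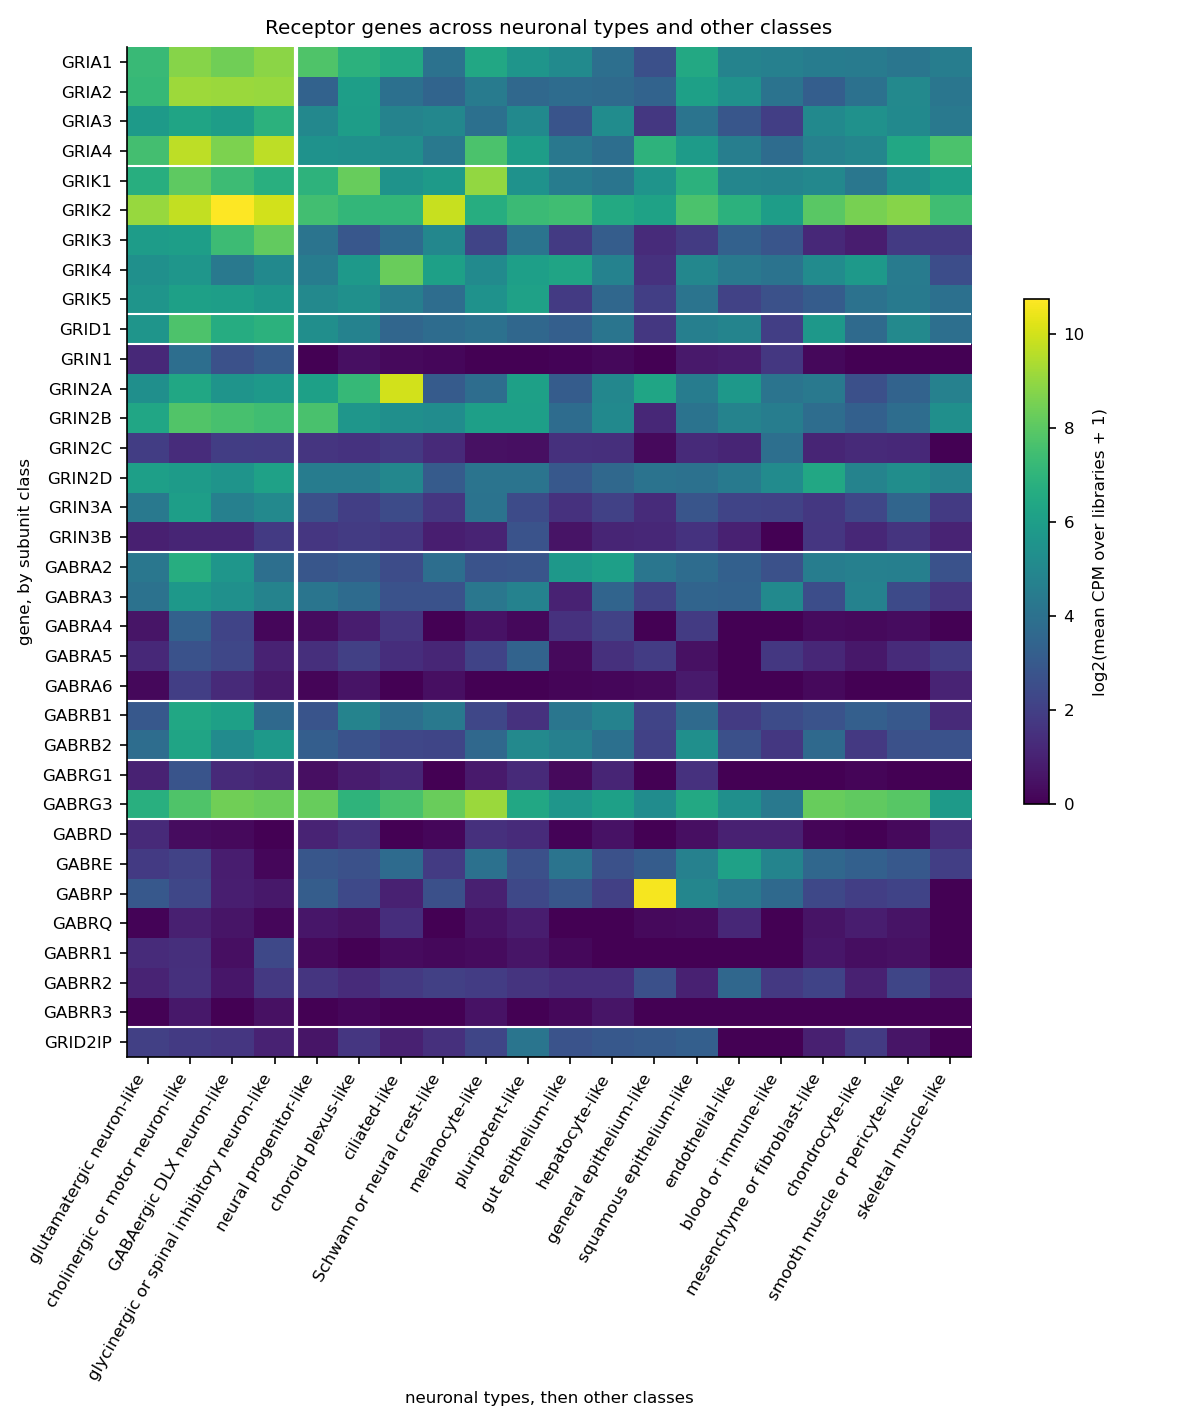
Mean CPM of 34 of the genes, as log2(CPM + 1), in 4 neuronal types (left of the white line) and 16 other classes. Rows are grouped by subunit class. The AMPA rows are brightest in the neuronal columns, and GRIN2A in ciliated-like nuclei (1015 CPM) and GABRP in general epithelium-like nuclei (1514 CPM) stand out elsewhere.

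The AMPA genes each had their highest mean in a neuronal cluster. GRIA2 and GRIA4 had 78.6% and 68.1% of their UMIs in neuron-like nuclei, GRIA1 50.3% and GRIA3 33.1%. GRIN1, at 86.0% of 228 UMIs, had a higher share. Per 100 kb of gene span and over all neuron-like nuclei, GRIA2 stood at 229 CPM, GRIA4 at 134 CPM, GRIA1 at 94.3 CPM and GRIA3 at 22.6 CPM. Cholinergic or motor neuron-like nuclei held 561 ± 67.8 CPM (SD, n = 6) of GRIA2, and glutamatergic neuron-like nuclei 144 ± 26.3 CPM (n = 6). The lowest of the 6 libraries in the first type (491 CPM) lay above the highest in the second (193 CPM). The DLX and glycinergic types, at 545 ± 115 CPM (n = 4) and 542 ± 75.9 CPM (n = 5), did not differ from the cholinergic one beyond their spread. GRIA4 reached 813 ± 91.3 CPM in the cholinergic type (n = 6) and 812 ± 87.3 CPM in the glycinergic type (n = 5), against 391 ± 111 CPM in the DLX type (n = 4) and 180 ± 43.5 CPM in the glutamatergic type (n = 6).

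GRIA1 was low in the sensory-like cluster. GRIA1 stood there at 17.3 ± 11.8 CPM (n = 4), against 182 ± 24.03 CPM (n = 6) in the other glutamatergic cluster, and the ranges over libraries (8.23 to 34.1 CPM and 165 to 230 CPM) did not overlap. GRIA1 made up 7.7 ± 5.0% of the AMPA UMIs of that cluster and between 23.2% and 29.9% in the other 4 neuronal clusters. GRIA2 made up 43.1 ± 7.5% there and 40.8 ± 6.7% in the DLX type (n = 4 each), and between 26.6% and 29.7% in the remaining 3. Such shares may follow gene length too, so they were compared only for 1 gene across clusters. How counts scale with gene span was not tested, which also limits the values per 100 kb. The GRIA1 value of the sensory-like cluster rests on 56 UMIs.

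**Figure D2:**
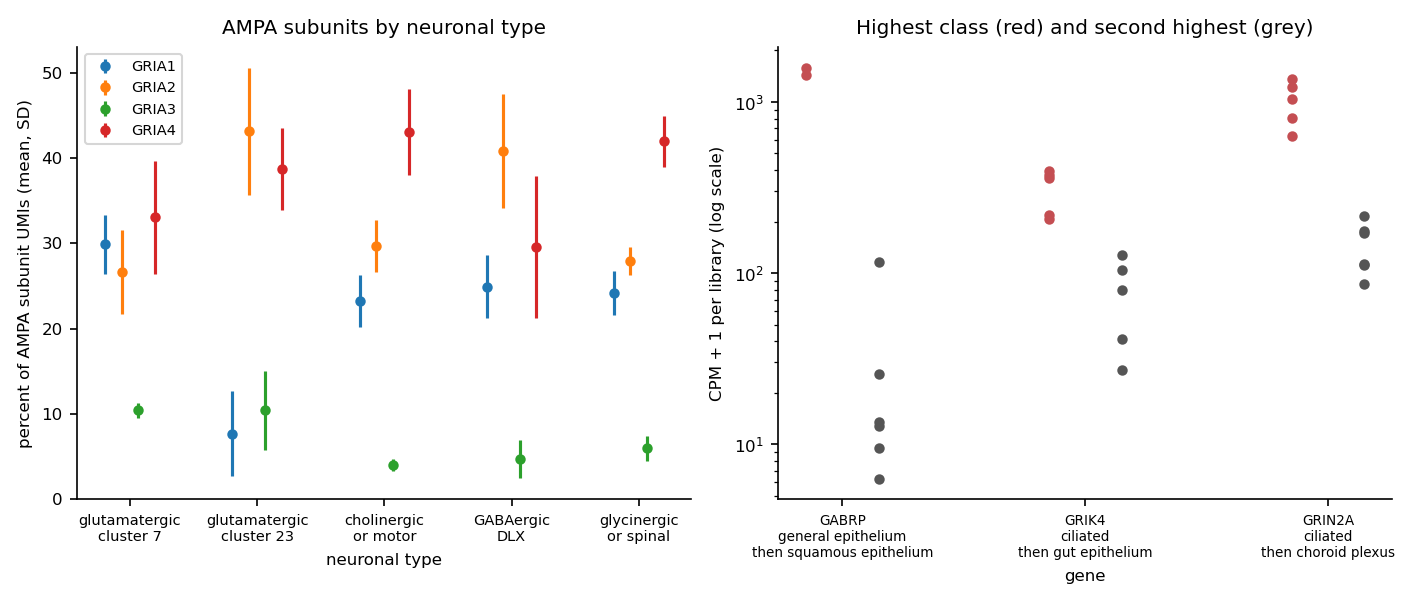
Left, share of AMPA subunit UMIs per gene in 5 neuronal clusters, mean and SD over libraries. Right, CPM + 1 per library on a log scale for 3 genes whose highest class (red) did not overlap its second highest (grey). GRIA1 is lowest in cluster 23 (7.7%), and GABRP spans 1440 to 1588 CPM in its highest class.

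Among kainate receptor genes, GRIK2, a pore-forming subunit, was highest in a neuronal type. It reached 1691 ± 661 CPM in the DLX type (n = 4), where the 4 libraries ran from 1069 CPM in WT replicate 2 to 2624 CPM in DATG replicate 1. The sensory-like cluster followed at 1054 ± 340.2 CPM (n = 4), the glycinergic type at 1005 ± 279 CPM (n = 5) and the cholinergic type at 856 ± 255 CPM (n = 6), all with ranges that overlapped the DLX type. GRIK2 also stood at 901 ± 217 CPM (n = 6) in Schwann or neural crest-like nuclei. GRIK3, another pore-forming subunit, was highest in the glycinergic type at 280 ± 93.7 CPM (n = 5), above the DLX type at 163 ± 40.7 CPM (n = 4) with overlapping ranges, and above the glutamatergic type at 59.9 ± 16.2 CPM (n = 6) without overlap.

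GRIK1 and GRIK4 peaked outside neurons. GRIK1 stood at 504 ± 189 CPM (n = 4) in melanocyte-like nuclei, with 758 and 448 CPM in WT and 504 and 305 CPM in KO, next to 367 ± 276 CPM (n = 4) in an unnamed cluster led by SFTA3 and NKX2-1 and 297 ± 130 CPM (n = 6) in choroid plexus-like nuclei. GRIK4, which joins the other kainate subunits, stood at 310 ± 90.5 CPM (n = 5) in ciliated-like nuclei. The second highest class, gut epithelium-like nuclei, had 75.0 ± 42.0 CPM (n = 5), and the library ranges of these classes did not overlap. GRIK5 likewise joins other kainate subunits. It was nearly level between pluripotent-like nuclei (68.7 ± 26.5 CPM, n = 4) and cholinergic nuclei (67.6 ± 11.3 CPM, n = 6). The pluripotent-like nuclei have POU5F1, NANOG and LIN28A among their markers. GRIK1 overlaps BACH1 and GRIK5 overlaps ZNF574 on the other strand, so the counts of both may include part of these genes.

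The delta receptor gene GRID1, at 210 ± 34.4 CPM (n = 6) in the cholinergic type and 46.7 ± 19.2 CPM (n = 6) in the glutamatergic type, differed between these types without overlap.

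NMDA receptor genes split between neuronal and other classes. GRIN1 was low, at 13.6 ± 4.0 CPM in the cholinergic type (n = 6), its highest, and at 22.8 CPM per 100 kb over neuron-like nuclei; its counts may include part of LRRC26 on the other strand. GRIN2B had 221 ± 73.3 CPM in the cholinergic type and 201 ± 89.2 CPM in neural progenitor-like nuclei (n = 6 each). GRIN2D, short at 50.1 kb, had 123 CPM per 100 kb in neuron-like nuclei, yet its highest level, 120 ± 17.4 CPM (n = 6), was in an unnamed cluster led by CDKN2B and COMP. GRIN3A stood at 64.4 ± 30.02 CPM in the cholinergic type and 19.1 ± 5.1 CPM in the glutamatergic type (n = 6 each), without overlap.

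GRIN2A was highest in ciliated-like nuclei. The 5 libraries with enough of them had 631 and 1366 CPM in WT, 806 and 1228 CPM in KO and 1042 CPM in DATG replicate 1. That mean of 1015 ± 300 CPM lay above choroid plexus-like nuclei at 144 ± 49.3 CPM (n = 6) and every neuronal type, the cholinergic one at 81.9 ± 12.7 CPM (n = 6) being the nearest of these. The cluster has the cilium genes DNAH5, DNAH9, CFAP43 and RSPH1, and NTN1 among its leading genes, and GRIN2A is itself one of its 10 leading genes. GRIN2C and GRIN3B had at most 13.9 and 5.66 CPM in any class.

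Among beta and gamma genes of GABA-A receptors, per 100 kb of gene span and over neuron-like nuclei, GABRB2 stood at 17.1 CPM, GABRB1 at 9.90 CPM and GABRG3 at 33.1 CPM. GABRG3 had its highest means outside neurons, at 866 ± 607 CPM (n = 4) in an unnamed cluster led by SFTA3, NKX2-1 and RAX and at 553 ± 78.2 CPM (n = 4) in melanocyte-like nuclei. The DLX type followed at 339 ± 118 CPM (n = 4). Of the 27 clusters and classes compared, only 12 lay below that unnamed cluster without overlap.

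Of the alpha genes, GABRA2 and GABRA3 were the main ones in neuron-like nuclei, at 24.6 and 11.9 CPM per 100 kb. GABRA2 reached 102 ± 55.4 CPM in the cholinergic type and 18.0 ± 12.98 CPM in the glutamatergic type (n = 6 each), with overlapping ranges. It was also seen in hepatocyte-like nuclei at 66.0 ± 37.7 CPM (n = 6). GABRA6, a subunit of cerebellar granule cells, had at most 3.003 ± 2.46 CPM in any cluster or class, in the cholinergic type. Of the other subunits, GABRE stood at 69.8 ± 40.6 CPM (n = 6) in endothelial-like nuclei, with a range from 29.2 to 116 CPM. GABRD, GABRQ, GABRR1, GABRR2 and GABRR3 had at most 11.2 CPM anywhere.

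GABRP, the pi subunit, known from uterus, breast and other epithelia, was high in a single cluster. General epithelium-like nuclei, with EPCAM, KRT8, KRT18 and CDH1, had 1440 CPM in WT replicate 2 and 1588 CPM in DATG replicate 2, the libraries with enough of them. Squamous epithelium-like nuclei followed at 29.6 ± 42.3 CPM (n = 6). GABRP is the leading gene of the general epithelium-like cluster, with MUC16 and VTCN1, and 624 of its 752 nuclei come from DATG replicate 2. At Leiden resolution 2 a cluster of 750 nuclei was led by the same genes. The class stood at 308 CPM there, but it then also held clusters of 872 and 348 nuclei led by other genes. In whole libraries GABRP ran, on the unscaled CPM, from 0.872 in KO replicate 1 to 210 in DATG replicate 2. The neuron-like nuclei of DATG replicate 2 had 28.3 CPM of it, 13.4% of the level in the whole library.

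RNA outside nuclei can add to such low values. Mouse host nuclei, which should not make human RNA, were taken as barcodes with at least 90% mouse UMIs. That rule caps the human RNA they can hold, and barcodes with more of it were counted as mixed. Human RNA made up 6.29% to 7.45% of the UMIs of these mouse nuclei. In that RNA GRIK2 had 272 CPM, GABRP 125 CPM and GRIA2 50.7 CPM (19 UMIs), while 8 members had no UMI. Of the 47 GABRP UMIs in mouse nuclei, 42 were in DATG replicate 2. The levels named above for GRIN2A and GRIK4 in ciliated-like, GABRP in general epithelium-like and GRIA2 in cholinergic nuclei lay above this level for the same gene. GRIA1 in the sensory-like cluster (17.3 CPM, against 48.0 CPM) lay below it. So did GABRA2 in the glutamatergic type (18.0 CPM, against 26.7 CPM). GABRP in squamous epithelium-like and in DATG replicate 2 neuron-like nuclei also lay below it. The level in mouse nuclei is taken over their human UMIs alone, a small part of all their UMIs. Lying below it therefore does not show that a value is background. How much RNA from outside nuclei added to these values was not tested.

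Of the 38 members, 19 had their highest mean in a neuronal cluster, 14 of them in the cholinergic one, and 19 elsewhere, 6 of them in pluripotent-like nuclei. For 14 members that highest mean was under 20 CPM. Spearman's rho of the mean levels over 27 clusters and classes had a median of 0.35 over the 276 pairs of the 24 members that reached 20 CPM. Among the pairs most alike were GRIN2B and GRIK5 (0.78), GRIA2 and GRIN3A (0.76) and GRIN3A and GRIK5 (0.76), and among the least alike GRIK3 and GABRE (-0.64). The clusters share libraries, so no test was made. For neighbouring GABA-A genes, rho was 0.52 for GABRA2 and GABRB1 on chromosome 4 and -0.33 for GABRE and GABRA3 on the X chromosome. GABRA4 and GABRA6 overlap GABRB1 and GABRB2 on the opposite strand, and no source used here states the strand setting of the counting, so reads in the shared bases cannot be told apart.

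The first comparison asks how the receptor genes of whole KO teratomas stand against WT. On CPM scaled by TMM, GRIA2 had 57.4 and 50.03 CPM in WT and 118 and 127 CPM in KO, so the KO libraries lay above WT without overlap. In the edgeR quasi-likelihood fit to all 6 libraries, 0 of 37 members passing the filter and 0 of 26272 genes (0%) were called at a Benjamini-Hochberg adjusted p under 0.05. GRIA2 had a log2 fold change of 1.19 (SE 0.50, unadjusted p 0.056, adjusted p 0.991). At an unadjusted p under 0.05 there were 1329 genes and 2 members. DESeq2 called 163 of 25238 genes (0.646%) and 0 members.

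The DATG pair spreads widely, and the fit to the 4 KO and WT libraries alone gave another answer. The coefficient of variation between libraries was 38.6% with all 6 and 24.2% with these 4. That edgeR fit called 504 of 25708 genes (1.96%), 116 of them higher in KO (0.451%), and 1 of 36 members. That member was GRIA2, which rose by a log2 fold change of 1.17 (SE 0.20, adjusted p 0.0343, higher in 2 of 2 KO libraries). That call is the only one among members in this fit. It held without KO replicate 1 (adjusted p 0.0154) and was lost without WT replicate 1 (0.0619), WT replicate 2 (0.0779) or KO replicate 2 (0.109). With DATG replicate 2 alone left out, 631 of 27410 genes (2.3%) and again 1 member, GRIA2, were called (adjusted p 0.0280), and with DATG replicate 1 alone left out 669 of 27201 genes (2.46%) and GRIA2 (adjusted p 0.0256). A share of 1 member in 36 is near these backgrounds and is no result about the family. In simulated counts the same kind of fit to 4 libraries made 28 false calls, so a single call may be false.

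Without reaching the threshold, more members had values above than below 0 in KO. Of the 37 members, 24 had a log2 fold change above 0, with a median of 0.31, against a median of 0.01 over all genes. In 17 members both KO libraries lay above both WT libraries, among them GRIA1, GRIA3, GRIA4, GRIN2B and GRIK2, and in 4 (GABRP, GABRE, GRIN2D and GRID2IP) both lay below. Over all 26272 genes tested, 6045 (23%) lay above and 5892 (22.4%) below in the same way. GRIA4 had 96.5 and 67.2 CPM in WT and 154 and 161 CPM in KO (log2 fold change 0.94, SE 0.47, adjusted p 1.00 by edgeR). GRIN2B had 49.5 and 25.1 CPM in WT and 68.1 and 111 CPM in KO (1.26, SE 0.79). The members furthest down by unadjusted p were GABRE (-0.92, SE 0.49), GABRP (-3.62, SE 2.13) and GRIN2D (-0.33, SE 0.36), none of them called.

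The share of neurons moved with these values. Of the human UMIs, neuron-like nuclei held 8.69% and 9.02% (WT), 32.8% and 25.9% (KO), and 24.2% and 4.61% (DATG). In summed libraries, fewer cells of a type and less RNA per cell cannot be told apart. GRIA2 had 78.6% of its UMIs in neuron-like nuclei, and 12 members had more than 50%. Within neuron-like nuclei GRIA2 had 283 and 416 CPM in WT and 322 and 420 CPM in KO, overlapping ranges with a log2 fold change of 0.09 (SE 0.25). With the neuron share set to 17.5% of UMIs in every library, the log2 ratio of KO over WT for GRIA2 was 0.02, against 1.16 as measured. Over the 23 members with at least 1000 UMIs the median log2 ratio was 0.54 in whole libraries, -0.07 in neuron-like nuclei, 0.07 in all other nuclei and 0.01 at the fixed share. GRIN2B and GRIN2A had ratios of 0.79 and 0.67 at the fixed share.

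**Figure D3:**
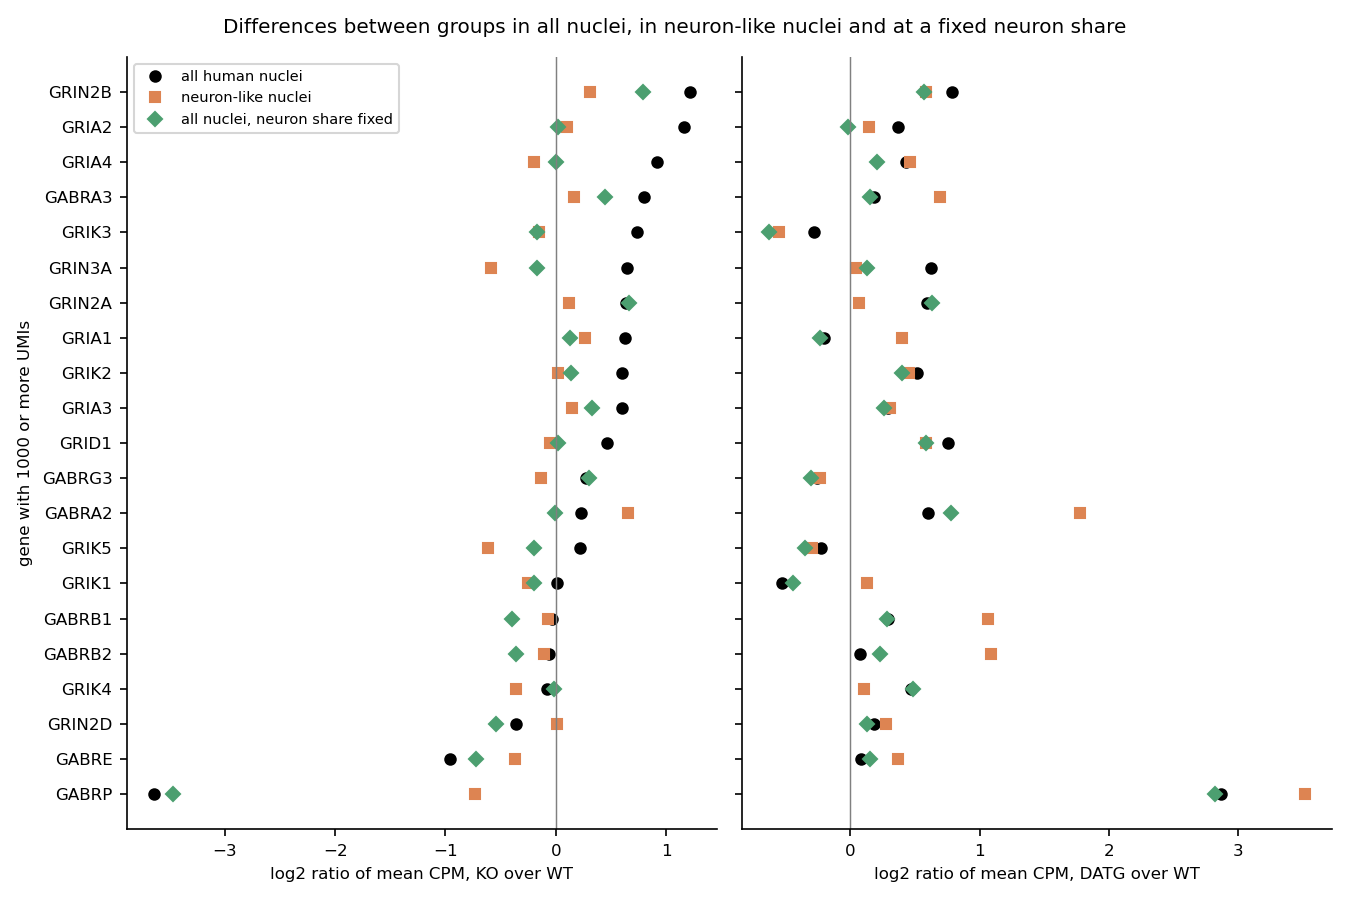
Log2 ratio of mean CPM in KO over WT (left) and DATG over WT (right) for 21 genes with at least 1000 UMIs: whole libraries (black circles), neuron-like nuclei (orange squares) and whole libraries with the neuron share fixed at 17.5% (green diamonds). For GRIA2 the KO ratio is 1.16 in whole libraries and 0.02 at the fixed share.

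DATG against WT gave 0 called genes of 26272 (0%) and 0 of 37 members in edgeR, with 779 genes and 4 members at an unadjusted p under 0.05; DESeq2 called 84 genes (0.333%) and 0 members. The 4 members were GRID1, GABRA2, GRIK4 and GABRQ. GRID1 had 43.2 and 32.0 CPM in WT and 74.4 and 65.9 CPM in DATG, without overlap (log2 fold change 0.90, SE 0.23, adjusted p 1.00 by edgeR). GABRA2 had 18.0 and 23.9 CPM in WT and 35.4 and 34.7 CPM in DATG, also without overlap (0.745, SE 0.25). GABRQ stood at 0.19 to 0.75 CPM throughout. The smallest p among members below 0 belonged to GRIK1 (-0.41, SE 0.57), GRID2IP (-0.26, SE 0.43) and GRIN3B (-0.25, SE 0.43).

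The DATG libraries differed from each other in many members. GRIA2 had 113 CPM in DATG replicate 1 and 36.3 CPM in replicate 2, GRIA1 126 and 47.5 CPM, and GRIN2B 117 and 21.1 CPM. The neuron-like share of the same libraries was 21.8% and 5.37%. The median log2 fold change of members against WT was 0.47 (28 of 37 above 0; median over all genes 0.02). It was 0.75 without DATG replicate 2 and -0.12 without DATG replicate 1. Without replicate 2, edgeR called 71 of 27410 genes (0.259%) and 0 members. Without replicate 1, so that replicate 2 alone stood for DATG and was assumed to vary like the other groups, it called 2090 of 27201 genes (7.68%) and 1 member, GRIK3, which fell by 1.67 on the log2 scale (adjusted p 0.0167), and the value of GRIA2 turned to -0.60.

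DATG against KO gave 0 called genes (0%) and 0 members in edgeR, with 1519 genes and 2 members at an unadjusted p under 0.05; DESeq2 called 71 of 22478 genes (0.316%) and 0 members. Without DATG replicate 2, edgeR called 3 of 27410 genes (0.0109%) and 0 members. Without DATG replicate 1 it called 6173 of 27201 genes (22.7%) and 12 of 37 members, 3 higher and 9 lower in DATG replicate 2, so the members' share was near the background. Among the lower ones were GRIK3 (-2.42, adjusted p 0.0023), GRIA2 (-1.77, adjusted p 0.0034) and GRIA1 (-1.64, adjusted p 0.0168), and the higher ones were GRIN2D, GABRE and GABRP. The comparison shares its libraries with those above. GRIK4 had 40.3 and 42.9 CPM in KO and 68.1 and 63.5 CPM in DATG, without overlap (log2 fold change 0.66, SE 0.23, adjusted p 0.692 by edgeR). GABRP had 0.82 and 1.48 CPM in KO and 1.12 and 238 CPM in DATG (6.70, SE 2.41), and its direction turned without DATG replicate 2 (-0.03). GABRE (1.18, SE 0.49) came next above 0, and GRIA1 (-0.75, SE 0.50), GABRG3 (-0.43, SE 0.28) and GRIK3 (-0.94, SE 0.64) below it.

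**Figure D4:**
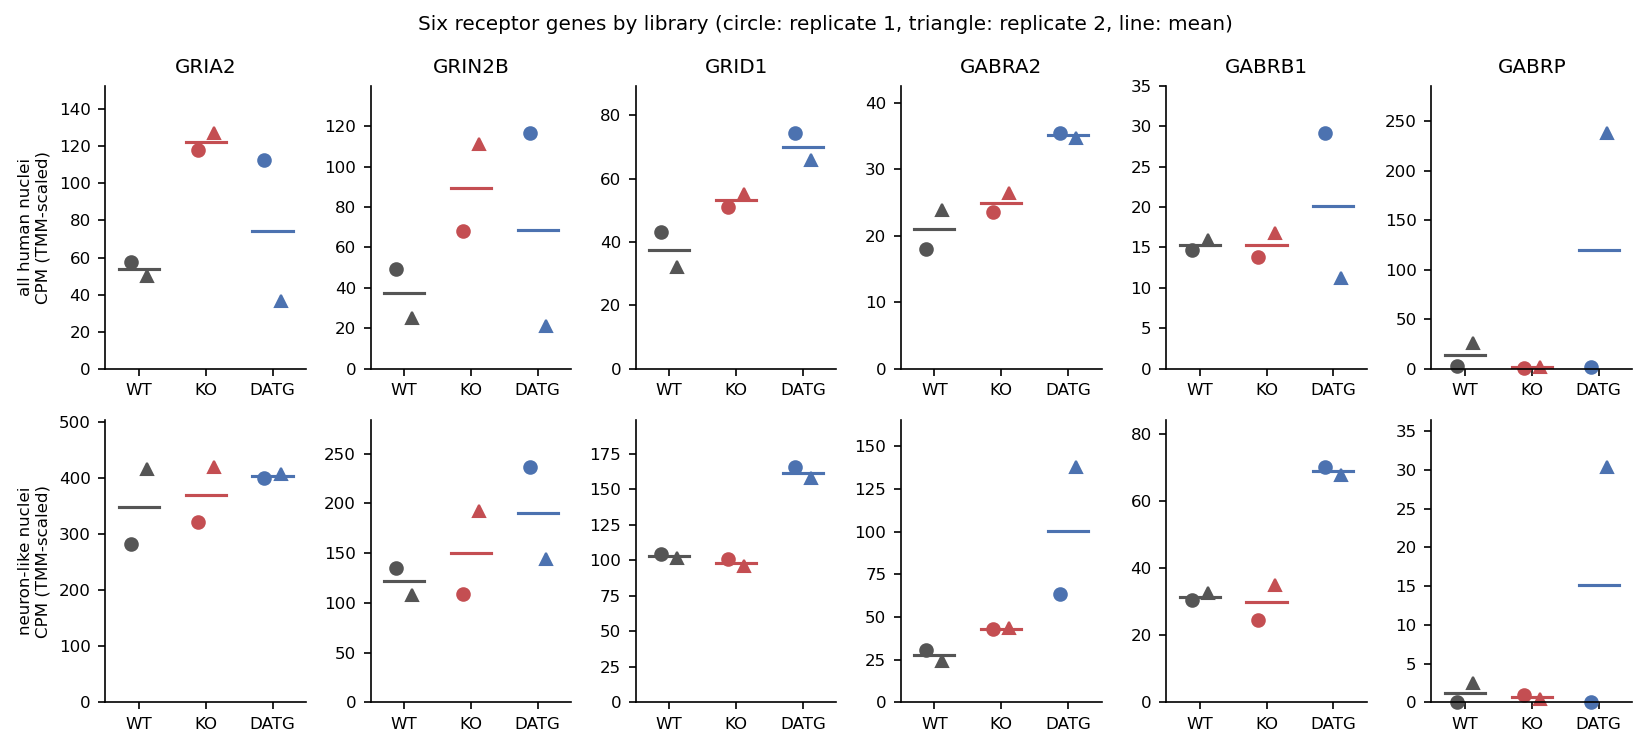
TMM-scaled CPM of 6 genes in each library, in all human nuclei (top) and in neuron-like nuclei (bottom); circles are replicate 1, triangles replicate 2 and lines the group mean. GRIA2 separates KO (118 and 127) from WT (57.4 and 50.03) in all nuclei and not in neuron-like nuclei, where GRID1 and GABRB1 are highest in both DATG libraries.

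Within neuron-like nuclei, KO against WT gave 0 of 19052 genes called (0%) and 0 of 34 members, with 390 genes and 1 member at an unadjusted p under 0.05; DESeq2 called 5 genes (0.0153%) and 0 members. That member, GRIK5, had 73.1 and 64.3 CPM in WT and 39.5 and 49.5 CPM in KO (log2 fold change -0.63, SE 0.23, adjusted p 1.00 by edgeR). GRIN3A (-0.58, SE 0.44) also lay below 0, and GABRA2 (0.64, SE 0.37) and GABRA4 (1.83, SE 1.37) above it. The GRIK5 counts may include part of ZNF574 on the other strand. The members' median was -0.10, with 12 of 34 above 0 and a median of -0.01 over all genes; it was above 0 when doublets were kept (0.071), at Leiden resolution 2 (0.026) and without WT replicate 1 (0.015).

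DATG neuron-like nuclei gave higher values for many members, with none called. Against WT, 0 of 19052 genes (0%) and 0 of 34 members passed, with 436 genes and 8 members at an unadjusted p under 0.05; DESeq2 called 7 genes (0.0401%) and 0 members. GABRB1 had 30.5 and 32.7 CPM in WT, 24.6 and 35.2 CPM in KO, and 70.3 and 67.8 CPM in DATG. Both DATG libraries lay above the other 4 (log2 fold change 1.13, SE 0.27 against WT; 1.21, SE 0.26 against KO; adjusted p 1.00 and 0.981 by edgeR). GRID1 behaved alike, with 104 and 102 CPM in WT, 101 and 96.0 CPM in KO, and 166 and 158 CPM in DATG (0.65, SE 0.20 and 0.72, SE 0.19). GRIA4 had 469 and 443 CPM in WT, 360 and 432 CPM in KO, and 580 and 739 CPM in DATG (0.53, SE 0.22 and 0.73, SE 0.22).

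GABRA2 had 30.9 and 24.4 CPM in WT, 42.8 and 43.7 CPM in KO, and 63.3 and 138 CPM in DATG. The 3 groups did not overlap, and DATG replicate 2 was by far the highest. The fold change without it was 1.197 on the log2 scale. With it, the fold change against WT was 1.82 on the log2 scale (SE 0.38, adjusted p 1.00 by edgeR). The call changed with the filter: with no filter on low counts the adjusted p was 0.000226, and over the other settings it ran from 0.0993 (DESeq2) to 1.00. GABRA4 gave 0.38 and 1.08 CPM in WT, 2.73 and 2.60 CPM in KO, and 2.12 and 23.4 CPM in DATG, the last from 300 nuclei. Below 0 against WT stood GRIN3B (-1.49, SE 1.07), GRIK3 (-0.49, SE 0.39) and GRIK5 (-0.24, SE 0.24), and against KO GRIN3B (-0.93, SE 0.98), GRIK3 (-0.31, SE 0.39) and GABRR1 (-0.27, SE 0.73).

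Against KO, DATG gave 0 of 19052 genes called (0%) and 0 of 34 members in neuron-like nuclei, with 651 genes and 8 members at an unadjusted p under 0.05; DESeq2 called 4 genes (0.0122%) and 0 members. The members' median was 0.49 against WT and 0.49 against KO, with 28 of 34 above 0 in each, beside medians of -0.03 and 0.00 over all genes. Without DATG replicate 2 these medians were 0.30 and 0.31. The comparisons share the DATG libraries. The mix of neurons moved with the values as well: the cholinergic type, where GABRA2, GABRB1, GRID1 and GRIA4 are high, made up 43.1% and 28% of neuron-like nuclei for WT, 32.4% and 29.9% for KO, and 40.7% and 63% for DATG. Its part in the result was not tested, and the comparison within that type is given next.

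Only the cholinergic and glutamatergic types had at least 50 nuclei in every library, and the test was repeated within each. Within cholinergic or motor neuron-like nuclei 0 of 14026 genes (0%) and 0 of 27 members passed in each of the 3 comparisons, with 411, 298 and 315 genes and 2, 4 and 0 members at an unadjusted p under 0.05; DESeq2 called 0, 1 (0.00337%) and 0 genes and 0 members. The members' medians were 0.14 for KO against WT, 0.43 for DATG against WT and 0.24 for DATG against KO, beside 0.00, 0.01 and 0.02 over all genes. GABRB1, at 74.6 and 73.6 CPM in WT, 75.2 and 73.7 CPM in KO, and 102 and 94.4 CPM in DATG (unscaled), kept the DATG libraries on top, with a smaller difference from WT (log2 fold change 0.46, SE 0.24) than in all neuron-like nuclei. GRID1 had 185 and 158 CPM in WT, 234 and 214 CPM in KO, and 254 and 213 CPM in DATG, so that KO and DATG overlapped. GABRA2 had 64.9 and 35.6 CPM in WT, 127 and 112 CPM in KO, and 81.5 and 194 CPM in DATG, with both KO and DATG above WT (log2 fold changes 1.29, SE 0.46 and 1.48, SE 0.47). Without DATG replicate 1, GABRA2 was called against WT (1.998, adjusted p 0.0491 by edgeR), 1 of 14 genes called of 12698 (0.11%) in that fit, and without DATG replicate 2 its value against KO turned to -0.57. GRIA2 had 511 and 516 CPM in WT and 637 and 649 CPM in KO (0.37, SE 0.20).

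Within glutamatergic neuron-like nuclei 0 of 15518 genes (0%) and 0 of 22 members passed in each comparison, with 425, 330 and 571 genes and 1, 2 and 3 members at an unadjusted p under 0.05; DESeq2 called 1 (0.00323%), 1 (0.00323%) and 2 genes (0.00646%) and 0 members. The medians were 0.19, 0.16 and 0.11, beside -0.02, -0.02 and 0.01 over all genes. GRIA2 had 113 and 140 CPM in WT, 140 and 193 CPM in KO, and 146 and 134 CPM in DATG. GABRA2 was higher in DATG by a log2 fold change of 1.46 (SE 0.55) against WT, and this turned to -0.20 without DATG replicate 1 and to -0.02 when doublets were kept. DATG replicate 2 gave 92 nuclei here, the fewest of the 6 libraries, and 189 in the cholinergic type, where WT replicate 1 gave 170.

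The other genes of these synapses were described from a list of 56, of which 55 were measured. They include transporters and enzymes of the transmitters, scaffolds, auxiliary subunits, and metabotropic and glycine receptors. In the fit to all 6 libraries 0 of 55 passed in any comparison of whole libraries. In the fit to the KO and WT libraries 3 of 55 rose in KO, against 0.451% of all genes, and 0 fell: GAD2, which makes GABA, by a log2 fold change of 1.81, SLC17A6, which loads glutamate into vesicles, by 1.30, and GLRA2, a glycine receptor subunit, by 1.26 (adjusted p 0.0215, 0.0483 and 0.0385 by edgeR). GAD2 had 8.20 and 10.4 CPM in WT and 33.7 and 32.4 CPM in KO in whole libraries, and 42.6 and 94.8 CPM and 93.2 and 107 CPM in neuron-like nuclei. SLC17A6 had 112 and 122 CPM in WT and 111 and 114 CPM in KO in neuron-like nuclei, so the groups overlapped there. GLRA2 had 44.8 and 54.6 CPM in WT and 72.1 and 78.0 CPM in KO in neuron-like nuclei, without overlap (log2 fold change 0.59, SE 0.23, not called). Of 53 list genes tested in neuron-like nuclei, 0 passed in any comparison. The smallest p in DATG belonged to CACNG2, an auxiliary AMPA subunit (log2 fold change 1.12, SE 0.25 against WT and 1.22, SE 0.25 against KO), and to CBLN1, a secreted synaptic organiser (1.68, SE 0.48 and 1.38, SE 0.44), none of them called.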

How the data were processed

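Nuclei of 6 teratoma libraries (10x Genomics 3' chemistry) were analysed. The deposited values are UMI counts per gene and barcode, made by the authors with Cell Ranger 8.0.1 on a joint human and mouse reference (GRCh38 and GRCm38), per the submitters' processing notes; the matrix headers name 8.0.0 and the feature names GRCm39. Whether introns and strand were used in counting was not given in the sources used here. Barcodes with at least 500 UMIs, 300 genes and 90% human UMIs were kept, and doublets were removed at 0.8% per 1000 nuclei, 4826 in all (5.20% to 10.8% of a library). Nuclei were clustered with scanpy 1.11.5 and leidenalg 0.10.2 (2000 variable genes without the members, 30 components, 20 neighbours, resolution 1), and clusters were named from listed markers; the haemoglobin-led and NKX2-1-led clusters were left unnamed after their leading genes were seen. The class names were rebuilt here.

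Counts were summed per library over all human nuclei, neuron-like nuclei and each neuronal type with at least 50 nuclei in every library. They were tested with edgeR 4.0.16 (quasi-likelihood, TMM scaling, filterByExpr, all 6 libraries in the fit, Benjamini-Hochberg adjusted p under 0.05); DESeq2 1.42.0 was an alternative. The CPM given with tests are TMM-scaled, except within neuronal types, and those by cluster or class are unscaled. The scripts were tested on simulated data. Members named with values are those called in a comparison or its 4-library fit, the 2 highest of each subunit class in neuron-like nuclei, and the 3 per direction with the smallest p; within types GRIA2, GABRA2, GABRB1 and GRID1 are given. Members named outside that rule, GRIK4, GRIN2A and GABRE by class among them, were chosen after their values were seen. The members and lists were chosen with earlier results of these data known. Some members are not reported here by name; they remain in the fits, the counts and the medians.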

Additional observations from a re-analysis of the deposited data

How the results depend on the processing

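With 2 libraries a group, most of the uncertainty lies in DATG, whose libraries differ in neuron share and mixed barcodes. Low members rest on few UMIs; whether depth limited their calls was not tested. The replicate numbers are shared across groups, but the labels do not say that they pair libraries; deviations of same-numbered libraries correlated at 0.14 (WT and KO), -0.10 (WT and DATG) and 0.48 (KO and DATG) over 12071 genes, and at -0.19, -0.33 and 0.48 over 11257 genes in neuron-like nuclei. With the replicate block edgeR called 0 genes and 0 members in every comparison. Where a library was left out and an arm had 1 sample, that sample was assumed to vary like the other groups. At a minimum of 1000 UMIs no cluster was named cholinergic, so that alternative was not run for that type. The cause of the changes below was not tested.

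Genes called in all nuclei were 163, 84 and 71 with DESeq2 (KO against WT, DATG against WT, DATG against KO), and 504 genes and 1 member in the 4-library fit of KO against WT. With no filter, neuron-like nuclei gave 72, 83 and 189 genes and 2 and 1 members in the DATG comparisons, and with DESeq2 5, 7 and 4 genes. In the cholinergic type no filter gave 42, 47 and 43 genes and 1, 1 and 0 members, and DESeq2 1 gene for DATG against WT. In the glutamatergic type no filter gave 89, 33 and 68 genes, and DESeq2 1, 1 and 2. The numbers of genes and members tested with no filter are not given here. The member counts of those fits therefore cannot be set against a background and are no result about the members. The same holds for the ranges of counts given next, from fits without 1 library. The numbers of genes and members tested are not given beside them. The highest gene count and the highest member count of a range can also come from different fits.

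Leaving out 1 library gave 0 to 669, 0 to 3281 and 0 to 7044 genes in all nuclei, with 0 to 2, 0 to 6 and 0 to 16 members. In neuron-like nuclei it gave 0 to 1073, 0 to 1 and 0 to 3158 genes, with 0 to 2, 0 and 0 to 7 members. In the cholinergic type it gave 0 to 411, 0 to 356 and 0 to 1782 genes with 0 to 3, 0 to 3 and 0 to 5 members, and in the glutamatergic type 0 to 641, 0 to 1 and 0 to 1049 genes with 0 to 2, 0 and 0 to 3 members. Except for the 669 genes, the highest counts came from fits to the 4 libraries compared, without DATG replicate 1 (3281, 7044, 3158, 356, 1782 and 1049 genes), WT replicate 2 (1073, 411 and 641 genes), WT replicate 1 or DATG replicate 2 (1 gene each); the 6 members came without DATG replicate 2 and the 2 in all nuclei without KO replicate 1.

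The members' median moved in neuron-like nuclei: KO against WT to 0.071 with doublets kept and 0.026 at resolution 2, DATG against WT to 0.40 with no filter, 0.42 in the 4-library fit and 0.37 at resolution 2, and DATG against KO to 0.42, 0.31 with doublets kept and 0.40 at resolution 2. Without 1 library it ran from -0.18 to 0.042, 0.30 to 0.62 and 0.31 to 0.72 there, and in all nuclei from -0.12 to 0.75 for DATG against WT and -0.55 to 0.23 for DATG against KO. GABRP in general epithelium-like nuclei stood at 308 CPM at resolution 2, where that class held further clusters. GRIA2 in the glutamatergic type stood at 280.8 CPM at resolution 2 and 323 CPM at 1000 UMIs.

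Reversed directions concerned members that were not called. In the cholinergic type they were GABRB1 for KO against WT (-0.13, doublets kept), GRIA2 for DATG against WT (-0.0021) and GRID1 for DATG against KO (-0.17, both at resolution 2). In the glutamatergic type, KO against WT reversed for GABRA2 (-2.02, doublets kept), GABRB1 (-0.090, 1000 UMIs) and GRID1 (0.021 with RLE size factors, 0.048 with no filter, 0.027 with DESeq2, 0.033 with the replicate block, 0.10 at 1000 UMIs, 0.44 at resolution 2, 0.032 with members among the clustering genes). DATG against WT reversed there for GABRA2 (-0.019) and GABRB1 (-0.13) with doublets kept. DATG against KO reversed for GRIA2 (0.064 with doublets kept, 0.25 at 1000 UMIs) and GABRB1 (-0.18 with DESeq2, -0.10 with the replicate block, -0.26 with doublets kept).

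Leaving out 1 library also reversed members, with these ranges. In all nuclei they were GRIK1 (-1.55 to 0.19) and GRIA2 (-0.60 to 1.06) for DATG against WT and GABRP (-0.035 to 7.67) for DATG against KO. In neuron-like nuclei they were GRIN3A for KO against WT (-0.99 to 0.015), GRIK3 for DATG against WT (-0.98 to 0.24) and GABRR1 for DATG against KO (-6.93 to 0.086). In the cholinergic type they were GRIA2 for DATG against WT (-0.012 to 0.15), and GABRA2 (-0.57 to 0.75) and GRID1 (-0.062 to 0.17) for DATG against KO. In the glutamatergic type they were GRID1 for KO against WT (-0.29 to 0.38), GRIA2 (-0.012 to 0.38), GABRA2 (-0.20 to 1.90), GABRB1 (-6.73 to 2.39) and GRID1 (-0.85 to 0.83) for DATG against WT, and GRIA2 (-0.43 to 0.10), GABRA2 (-0.47 to 1.64), GABRB1 (-7.85 to 0.72) and GRID1 (-0.87 to 0.84) for DATG against KO.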
